A study of Mus musculus with 24 samples.

Results

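The 10 genes described here are H19, Igf2, Grb10, Peg3, Cdkn1c, Plagl1, Mest, Dlk1, Meg3 and Igf2r, a set of imprinted genes tied to growth, out of 31618 genes measured in the LLC1 tumours and 36040 in the KP tumours. All 10 were found by symbol in both tables. They were chosen by their levels in these same libraries, that is, with their differences between the groups already known, so those differences are given as a description, and tests are read only for other genes.

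RNA was sequenced from live CD45-negative cells, which are depleted of leukocytes, sorted on day 15 from tumours that formed after injection of 2 mouse lung cancer lines. Each of 8 groups had 3 libraries, 24 in all. LLC1 (Lewis lung carcinoma) tumours came in 3 forms: parental, chronic IFNG (cells exposed over a long time to low levels of interferon gamma) and relapsed, meaning regrown following treatment with immune checkpoint blockade. KP tumours, from a genetically engineered mouse model whose engineered alleles include p53 flox/flox, formed 5 groups, the parental and chronic IFNG ones and 3 relapses, labelled 1st, 2nd and late. All KP groups share the model's alleles, and every group carries the treatment label None at harvest. The labels name neither the blocking agent nor the length of IFNG exposure, and do not say how many clones or mice stand behind a group. The submitters call the libraries biological replicates; where they did not come from separate tumours, p-values measure only the spread between these samples. Differences below are always against the parental tumours of the same line, and the comparisons within a line share those 3 parental libraries.

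Imprinted genes are expressed mainly from the allele inherited from one parent, with the choice set by DNA methylation laid down in the germ line. Many act on fetal growth: paternally expressed genes such as Igf2, Peg3, Plagl1, Mest and Dlk1 mostly promote it, and maternally expressed genes such as H19, Cdkn1c, Grb10 and Igf2r mostly restrain it. Most are turned down after birth in lung and many other tissues, and altered levels are common in tumours. These libraries measure the total RNA of a gene and do not separate its parental alleles.

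The genes lie at 8 imprinted regions (coordinates are GRCm38, gene models GENCODE vM21). H19, a long noncoding RNA gene at chr7:142575529-142578143 on the minus strand, and Igf2, the gene for a fetal growth factor at chr7:142650766-142666816, are neighbours that share an imprinting control region. Cdkn1c lies farther along the same chromosome at chr7:143458339-143461050, in the adjoining KCNQ1OT1 domain. Peg3 is at chr7:6703892-6730431, Mest at chr6:30723547-30748465, Plagl1 at chr10:13060504-13131694, Grb10 at chr11:11930508-12038683 and Igf2r at chr17:12682406-12769664. Dlk1 (chr12:109452823-109463336) and Meg3 (chr12:109541001-109571726) share the remaining region.

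H19 RNA is also the host of a microRNA, whose hairpin lies inside the gene at chr7:142577064-142577147. Its mature products are shown because H19 is the member with the widest range between groups in both lines; the microRNAs themselves were not measured in these libraries. The sequences are from RefSeq (GRCm38.p6), 5′ to 3′, with the seed, bases 2 to 8, in capitals. The arms lie at chr7:142577112-142577133 and chr7:142577078-142577099 and have different seeds.
mmu-miR-675-5p: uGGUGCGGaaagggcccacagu
mmu-miR-675-3p: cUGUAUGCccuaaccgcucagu

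RefSeq promoter windows, running from 250 bases before to 50 bases after a start, were matched for 8 of the 10 genes, several of which have more than 1 window. One each of Grb10, Peg3 and Meg3 is shown since these genes differed several-fold from parental tumours in at least 1 relapsed group. Capitals mark matches, on either strand, to a motif of an imprinting regulator or promoter element: TGCCGC, bound by ZFP57 when methylated, GGGGCCCC, bound by PLAGL1, or the TATA box letters TATAAA. The Grb10 window shown, chr11:12037371-12037670 on the minus strand, held 45 CpG dinucleotides against a median of 7 over 32851 windows of the same length, and 98.1% of windows held fewer. The other Grb10 window, chr11:12027922-12028221, held 9 CpG dinucleotides and no match. Its 1 marked match is to the reverse complement of TGCCGC.
Grb10 promoter: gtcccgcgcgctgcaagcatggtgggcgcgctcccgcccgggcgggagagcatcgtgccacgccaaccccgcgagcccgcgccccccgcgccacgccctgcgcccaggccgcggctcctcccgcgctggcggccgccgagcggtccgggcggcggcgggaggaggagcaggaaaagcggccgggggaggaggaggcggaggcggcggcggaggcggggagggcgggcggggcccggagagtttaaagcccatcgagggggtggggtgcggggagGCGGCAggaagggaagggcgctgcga
The Peg3 window, chr7:6730370-6730669 on the minus strand, held 13 CpG dinucleotides and 1 match to GGGGCCCC.
Peg3 promoter: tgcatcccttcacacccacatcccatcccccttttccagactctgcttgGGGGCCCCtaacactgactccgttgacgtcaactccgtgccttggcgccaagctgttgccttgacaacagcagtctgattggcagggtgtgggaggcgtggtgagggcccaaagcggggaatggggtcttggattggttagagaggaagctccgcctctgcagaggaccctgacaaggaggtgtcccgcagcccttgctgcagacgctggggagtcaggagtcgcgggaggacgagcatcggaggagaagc
The Meg3 window shown, chr12:109540746-109541045 on the plus strand, held 13 CpG dinucleotides, 1 match to the reverse complement of TGCCGC, and 2 overlapping TATAAA matches on opposite strands that share the second marked run. The other Meg3 window, chr12:109545148-109545447, held 1 CpG dinucleotide and no match.
Meg3 promoter: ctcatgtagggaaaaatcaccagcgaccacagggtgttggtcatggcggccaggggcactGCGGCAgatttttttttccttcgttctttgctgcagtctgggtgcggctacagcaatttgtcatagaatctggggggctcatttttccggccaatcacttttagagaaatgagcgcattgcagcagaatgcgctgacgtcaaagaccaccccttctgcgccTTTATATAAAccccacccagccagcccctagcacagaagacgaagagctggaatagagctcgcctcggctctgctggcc
Across all windows 11.6% held TGCCGC, 1.08% GGGGCCCC and 13.6% TATAAA. The interferon-response letters TTCNNNGAA occurred in 8.3% of windows and the core motif of CTCF in 0.0365%, and no window of the 8 genes held either. A match is a description of the letters and not a binding site.

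Values are given as normalised counts, which are reads scaled for library depth and calculated back from the deposited log2-scale values, as mean ± SD with n = 3. Levels of different genes were not compared, because the counts are not scaled for gene length. The libraries held an estimated 13.4 to 34.8 M fragments (M, 1e6) in LLC1 and 13.7 to 32.7 M in KP, and the tables of the lines were normalised separately, so levels were not compared between lines. The relapsed LLC1 libraries stood apart in genes detected, 22104 to 22661 against 25807 to 29069 in parental libraries, at 20.3 to 24.3 M fragments against 18.5 to 34.8 M. Krt8 and Krt18 were high in KP, at means of at least 40154 normalised counts in every group, while the lung marker Nkx2-1 averaged 8 or fewer in all 8 groups and Epcam and Cdh1 averaged 12.8 or fewer in LLC1. The 7 leukocyte markers summed to 28.7 CPM (counts per 1e6) or less in each library, 6 endothelial markers to at most 6.06 and 8 skeletal muscle markers to at most 2.63. The 8 fibroblast markers were far above these sums and differed between groups, so their values stand beside the results they move with. Bulk RNA cannot tell fewer cells of a type from less RNA per cell. A gene was tested where at least 1 group averaged 1 log2 unit above the lowest value of the table, which is a normalised count of 130.4 for LLC1 and of 144 for KP. H19, Grb10, Peg3 and Igf2r passed in LLC1, and H19, Grb10, Meg3 and Igf2r in KP; the other 6 in each line had lower means in every group.

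In relapsed LLC1 tumours, RNA of H19, Grb10 and Peg3 was present at a small fraction of the parental level, 27.9-fold, 44.9-fold and 22.7-fold lower in the group means. Igf2r was 1.24-fold higher. Igf2, Plagl1 and Meg3, all at low counts, were also below the parental range in all 3 relapsed libraries. In chronic IFNG LLC1 tumours Grb10 was near its parental level, Peg3 was 2.03-fold lower, and H19, Igf2 and Meg3 had means above the parental ones.

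H19 restrains growth in the embryo through its microRNA and is seldom abundant in adult tissue. In parental LLC1 libraries 1 to 3 it stood at 2334, 2456 and 3589 normalised counts (mean 2793 ± 692), in chronic IFNG libraries at 6736, 4881 and 3529 (5049 ± 1610), and in relapsed libraries at 51.6, 83.7 and 165 (99.9 ± 58.2). All 3 relapsed libraries were below every other library, and the spread among them was wide relative to their mean. Chronic IFNG and parental libraries overlapped: chronic IFNG library 3 was just under parental library 3. On the deposited log2 scale the difference was -2.78 (SE 0.20) in relapsed and 0.73 (SE 0.20) in chronic IFNG tumours.

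**Figure D1:**
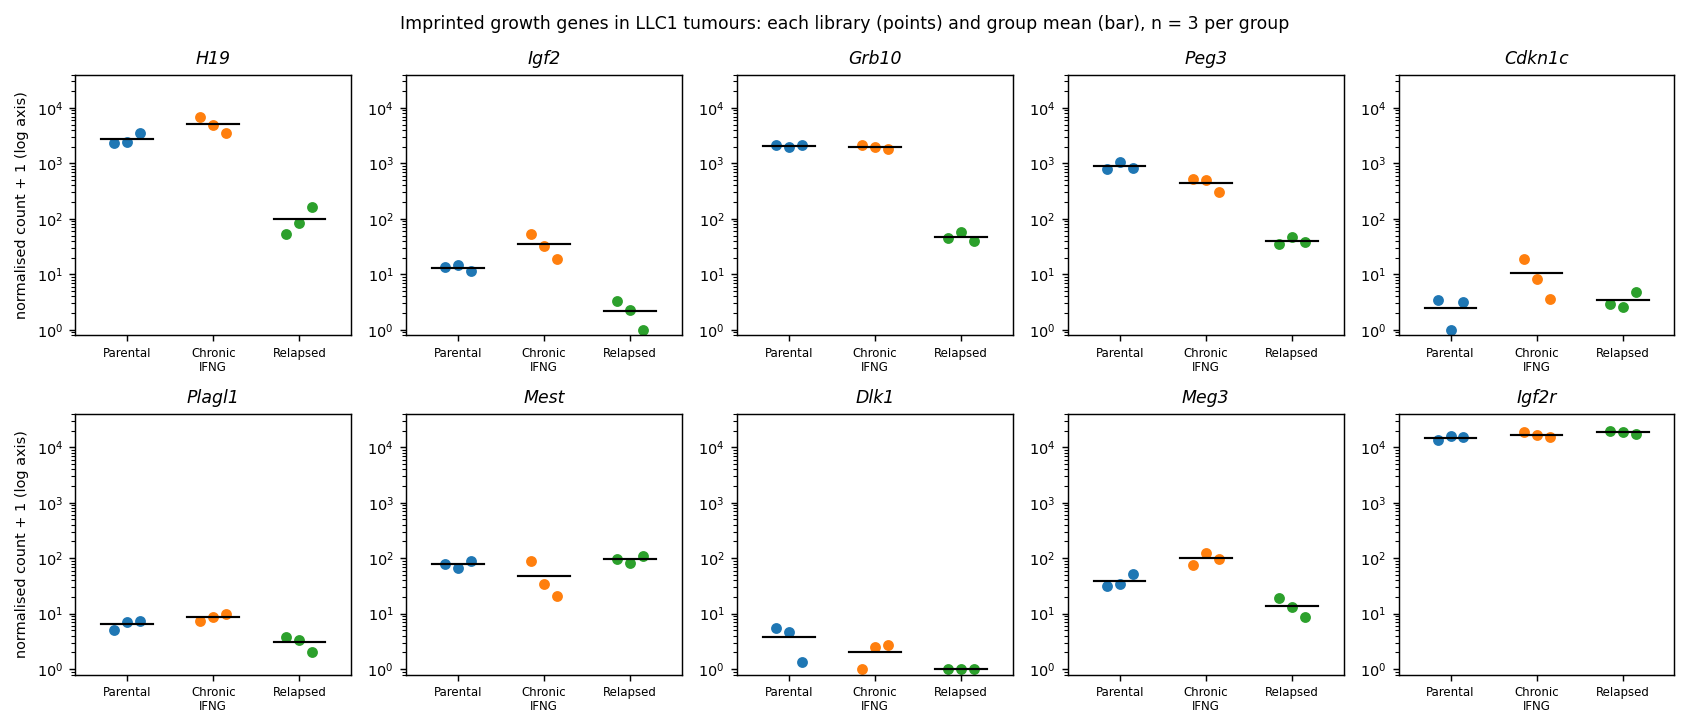
Normalised counts plus 1, on a log axis, of the 10 genes in the 9 LLC1 libraries, 1 point per library and a bar at each group mean. H19, Grb10 and Peg3 sit at group means of 99.9, 46.4 and 39.5 in relapsed tumours, below all parental and chronic IFNG libraries.

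Igf2, whose protein drives fetal growth through the receptor Igf1r, was low throughout the line. It stood at 12.5, 14 and 10.4 normalised counts in parental, 53.1, 31.5 and 18.2 in chronic IFNG and 2.32, 1.29 and 0 in relapsed libraries. The relapsed values rest on 2, 1 and 0 estimated reads, so no fold is given. The 3 groups did not overlap: chronic IFNG was highest (34.3 ± 17.6), parental next (12.3 ± 1.78) and relapsed lowest (1.21 ± 1.16), the same order of group means as for H19.

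Igf2r, the receptor that clears IGF2 from the cell surface and carries it to lysosomes, kept a high level in all 9 LLC1 libraries. It stood at 13386, 16072 and 15078 in parental (14845 ± 1358), 18671, 16964 and 15223 in chronic IFNG (16952 ± 1724) and 19678, 18562 and 17069 normalised counts in relapsed libraries (18436 ± 1309). Relapsed libraries all exceeded the parental ones, and chronic IFNG overlapped both. The log2 difference was 0.30 (SE 0.09) in relapsed and 0.18 (SE 0.09) in chronic IFNG tumours.

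Grb10, an adaptor that binds the insulin and IGF1 receptors and dampens their signal, separated the relapsed libraries from all others. Its level was 2141, 1936 and 2178 in parental (2085 ± 129.9), 2165, 2002 and 1835 in chronic IFNG (2001 ± 165) and 45, 56 and 38.2 normalised counts in relapsed libraries (46.4 ± 8.98). Chronic IFNG and parental libraries overlapped, with a log2 difference of -0.05 (SE 0.06), whereas relapsed libraries lay far under both at -2.70 (SE 0.06).

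Peg3, a zinc finger protein of placenta, brain and muscle progenitors, was stepped across the groups. It stood at 807, 1044 and 841 in parental (897 ± 128), 519, 506 and 304 in chronic IFNG (443 ± 121) and 34.8, 47 and 36.6 normalised counts in relapsed libraries (39.5 ± 6.59). No 2 groups overlapped. The log2 difference was -0.63 (SE 0.10) in chronic IFNG and -1.83 (SE 0.10) in relapsed tumours.

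Meg3, a maternally expressed noncoding RNA, stood at 30.4, 33.5 and 51.4 normalised counts in parental (38.4 ± 11.3), 73.8, 124 and 97.2 in chronic IFNG (98.3 ± 25.1) and 17.8, 12.1 and 7.76 in relapsed libraries (12.6 ± 5.01). The groups did not overlap, and the means were 2.56-fold higher and 3.06-fold lower than the parental one. Dlk1, a Notch-like protein that holds back fat cell maturation, was near the detection limit: 7, 5 and 0 estimated reads in parental, 0, 1 and 1 in chronic IFNG and 0 in each relapsed library. A count of 0 allows up to 3 reads in a library, so a difference was not detectable at this depth.

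The remaining 3 were also low. Mest, an enzyme-like protein of embryonic mesoderm, ranged from 66.5 to 87.2 normalised counts in parental, 20.1 to 89.2 in chronic IFNG and 81.9 to 107 in relapsed libraries, and all groups overlapped their neighbours in order. Plagl1, a zinc finger transcription factor that regulates other imprinted genes, ranged from 4.07 to 6.28, 6.42 to 8.77 and 1.04 to 2.73 in the same order, with no overlap. Cdkn1c, the cell cycle inhibitor p57, never exceeded 3.74 in parental or relapsed libraries and reached 2.63 to 18.3 in chronic IFNG libraries.

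Of the 4 genes that passed the filter, 4 were called in relapsed LLC1 (limma, adjusted p below 0.05), where 45.4% of all tested genes were called. In chronic IFNG LLC1 2 were called, H19 and Peg3, beside 24.5% of all tested genes. These counts are no test of the 10 genes, which were chosen with these contrasts in view and had to pass a filter in the group where they are high, so nothing is read from them.

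In KP tumours the relapsed groups did not share 1 pattern. H19 was 3.7-fold lower in 1st relapse and 66.1-fold lower in 2nd relapse, but in late relapse it overlapped the parental libraries. First-relapse tumours had higher Grb10, Meg3, Cdkn1c and Plagl1, by 5.91-fold, 4.5-fold, 3.06-fold and 2.55-fold, and lower Mest. Second-relapse tumours had lower Meg3, Peg3 and Plagl1, by 6.61-fold, 8.91-fold and 3.43-fold. Their means there were 14.3, 6.47 and 7.04 normalised counts, and that of H19 was 10.6, so the 2nd-relapse folds are imprecise. Igf2r was lower in all 4 groups, from 1.17-fold in chronic IFNG to 2.64-fold in 2nd relapse.

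H19 stood at 785, 547 and 775 normalised counts in parental KP libraries (702 ± 134) and at 1284, 897 and 995 in chronic IFNG libraries (1058 ± 201). The 1st-relapse libraries held 149, 259 and 162 (189.8 ± 60) and the 2nd-relapse libraries 10.7, 11.9 and 9.3 (10.6 ± 1.31). Late-relapse libraries held 344, 1001 and 424 (589 ± 358), with library 2 more than the parental libraries and the other two under them. By group mean the order was chronic IFNG, parental, late, 1st and 2nd relapse. Neighbours in that order did not overlap, except parental and late relapse. The log2 differences were 0.39, -0.93, -1.79 and -0.21 in chronic IFNG, 1st, 2nd and late relapse, each with an SE of 0.18.

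**Figure D2:**
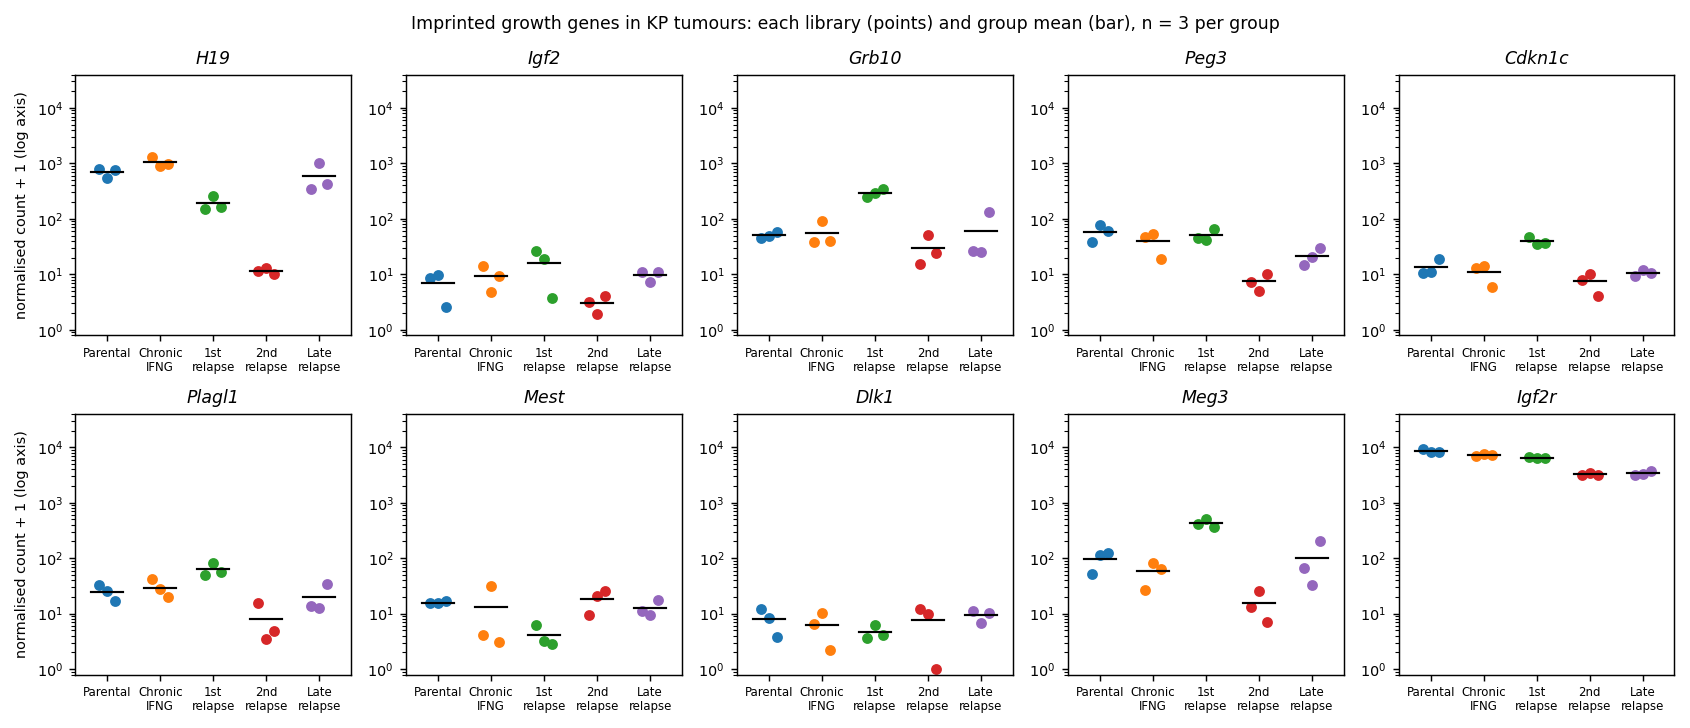
Normalised counts plus 1, on a log axis, of the 10 genes in the 15 KP libraries, 1 point per library and a bar at each group mean. H19 is lowest in 2nd relapse (mean 10.6), Grb10 and Meg3 are highest in 1st relapse (295 and 427), and Igf2r is lowest in 2nd and late relapse (3229 and 3398).

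Igf2 was low in KP as well, at 0.925 to 25.2 normalised counts, and every group overlapped its neighbours in order. Its receptor Igf2r stood at 9125, 8153 and 8294 in parental (8524 ± 525), 6976, 7683 and 7273 in chronic IFNG (7311 ± 355) and 6622, 6327 and 6393 normalised counts in 1st-relapse libraries (6448 ± 155). The 2nd-relapse libraries held 3130, 3427 and 3131 (3229 ± 171) and the late-relapse libraries 3153, 3256 and 3785 (3398 ± 339). Parental, chronic IFNG, 1st relapse and late relapse descended without overlap, while 2nd and late relapse overlapped. The log2 differences from parental were -0.21, -0.37, -1.26 and -1.20 in chronic IFNG, 1st, 2nd and late relapse, each with an SE of 0.06.

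Grb10 was high in 1 KP group. It stood at 44, 49.1 and 56.7 normalised counts in parental (49.9 ± 6.38), 244, 289.9 and 352 in 1st relapse (295 ± 54.6) and 14.5, 49.7 and 22.8 in 2nd-relapse libraries (29 ± 18.4). Chronic IFNG libraries held 37.6, 88.9 and 38.4, and late-relapse libraries 24.9, 24.6 and 132. Every 1st-relapse library exceeded every library of the other groups. The log2 difference there was 0.80 (SE 0.13), and the other groups overlapped parental.

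Meg3 followed the same order at its top. It stood at 50.2, 113 and 122 in parental (94.8 ± 38.9), 405, 510.2 and 365 in 1st relapse (427 ± 75) and 12.1, 24.7 and 6.2 normalised counts in 2nd-relapse libraries (14.3 ± 9.48). Chronic IFNG libraries held 25.6, 80.7 and 63.9, and late-relapse libraries 64.4, 31.8 and 207. First relapse was above, and 2nd relapse below, all libraries of every other group, with log2 differences of 0.85 and -0.49 (SE 0.15 for both). Late-relapse library 3 held the most Meg3, Grb10 and Plagl1 of its group. Dlk1, the protein-coding neighbour, stayed at 11.3 normalised counts or less in all 15 libraries, and all groups overlapped.

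The growth restrainer Cdkn1c stood at 9.73, 10.1 and 18.2 normalised counts in parental (12.7 ± 4.78) and at 47, 33.6 and 35.7 in 1st-relapse libraries (38.8 ± 7.22). Its other groups ranged from 3.07 to 13.3. Plagl1 stood at 31.7, 24.7 and 16 in parental (24.1 ± 7.87), 49.6, 80.3 and 55 in 1st relapse (61.7 ± 16.4) and 14.7, 2.56 and 3.83 in 2nd-relapse libraries (7.04 ± 6.68). Both genes were above the parental range in all 3 1st-relapse libraries.

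Peg3 ranged from 36.7 to 77.2 normalised counts in parental libraries (57.7 ± 20.3), 3.99 to 9.24 in 2nd relapse (6.47 ± 2.64) and 13.9 to 28.5 in late relapse (20.6 ± 7.37). These 3 groups did not overlap, whereas chronic IFNG (17.8 to 52.4) and 1st relapse (40.1 to 64.9) overlapped parental. Mest was 14.4, 14.7 and 15.6 in parental and 5.25, 2.21 and 1.87 in 1st-relapse libraries, without overlap, and 2.1 to 30.9 in the other groups.

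Of the 4 tested genes, 1 was called in chronic IFNG KP (21.8% of all tested genes were called), 4 in 1st relapse (50.9%), 3 in 2nd relapse (H19, Meg3 and Igf2r; 65.8%) and 1 in late relapse (Igf2r; 56.9%). As in LLC1, nothing is read from these counts. Grb10 and Meg3 passed the filter through their 1st-relapse means alone.

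**Figure D3:**
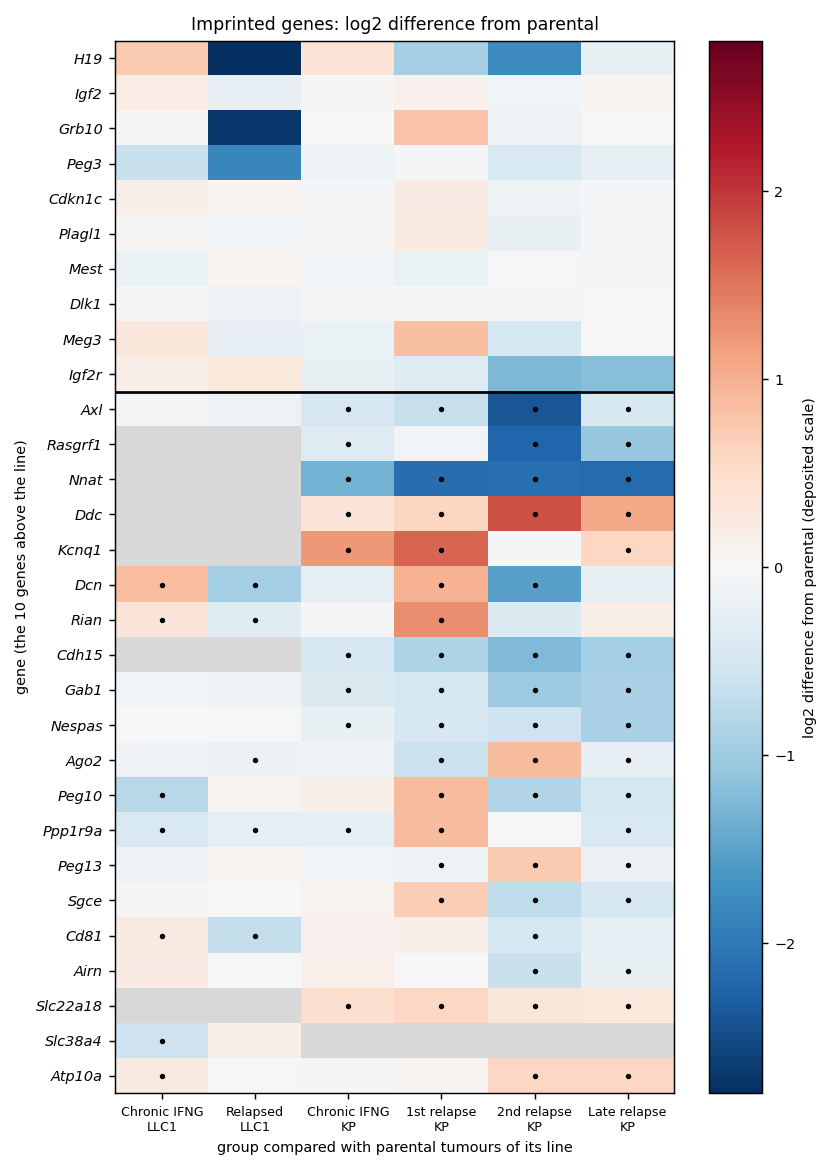
Log2 differences from parental tumours on the deposited scale, as colour (red higher, blue lower), of the 10 genes above the line and of 20 other imprinted genes with large differences below it, 1 column per comparison; dots mark limma calls, given below the line only, and grey means not tested. In relapsed LLC1 Grb10 is at -2.70 and Igf2r at 0.30, while in KP Grb10 is at 0.80 in 1st relapse and Igf2r at -1.26 in 2nd relapse.

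Fibroblast markers moved with several of these genes. The 8 markers were Pdgfra, Dpt, Pi16, Col1a1, Col3a1, Lum, Fap and Dpp4. They summed to 472 to 765 CPM in parental KP, 2020 to 2644 in 1st relapse and 44 to 64.2 in 2nd relapse. None of the 8 averaged below 1 normalised count in these groups, but Fap, Lum and Dpt were low in 2nd relapse, at means of 11.5, 12.6 and 12.9. The same 3 groups had group means in this order for Meg3, Grb10 and Plagl1. Late-relapse library 3, the one with the most Meg3, Grb10 and Plagl1, summed to 1775 against 336 and 414 in the other two. The sum of 6 pericyte and smooth muscle markers was 36.2 to 73.9 CPM in 1st relapse against 17.2 to 26.6 in parental libraries. Most of that gap was Acta2 (578 ± 298 normalised counts against 91.6 ± 30.6), while Rgs5 (21.2 against 21.4) and Notch3 (112 against 162) had means no higher than parental. The part of these cells in the KP results was not tested. Epithelial markers differed between the KP groups too: Epcam averaged 758 in parental, 4336 in chronic IFNG, 7367 in 1st, 1474 in 2nd and 2598 in late relapse, and Cdh1 averaged 3804, 8257, 10056, 16457 and 7071 in that order. Their part was not tested either. H19 went the other way in 1st relapse, lower where the fibroblast markers were higher, and Mest likewise. In 2nd relapse H19 (10.6 against 702 normalised counts) and Peg3 (6.47 against 57.7) were lower along with the fibroblast markers, while Mest overlapped parental. The part of fibroblasts was not tested for these genes. In LLC1 the markers summed to 10057 to 14562 in parental, 18534 to 29710 in chronic IFNG and 11745 to 13412 in relapsed libraries. Relapsed and parental libraries overlapped in this sum, most of which was Col3a1 (means of 272367 and 268299 normalised counts). Without overlap, Col1a1 (1026 against 2019), Lum (10429 against 14942) and Pi16 (63.1 against 127) were lower in relapsed libraries. Pdgfra was higher (5855 against 5074), also without overlap, and Dpt, Fap and Dpp4 overlapped. The part of fibroblasts here was not tested. The pericyte and smooth muscle sum was 40.5 to 47.4 CPM in relapsed against 21.2 to 24 in parental LLC1 libraries, with Acta2 (225 against 58 normalised counts) and Pdgfrb (741 against 414) higher and Notch3 (2.79 against 29.9) lower. The part of these cells in the relapsed LLC1 results was not tested. In chronic IFNG LLC1, H19, Igf2 and Meg3 were higher alongside the markers, and library 1 had the most H19, Igf2 and marker RNA of its group; the part of these cells was not tested.

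**Figure D4:**
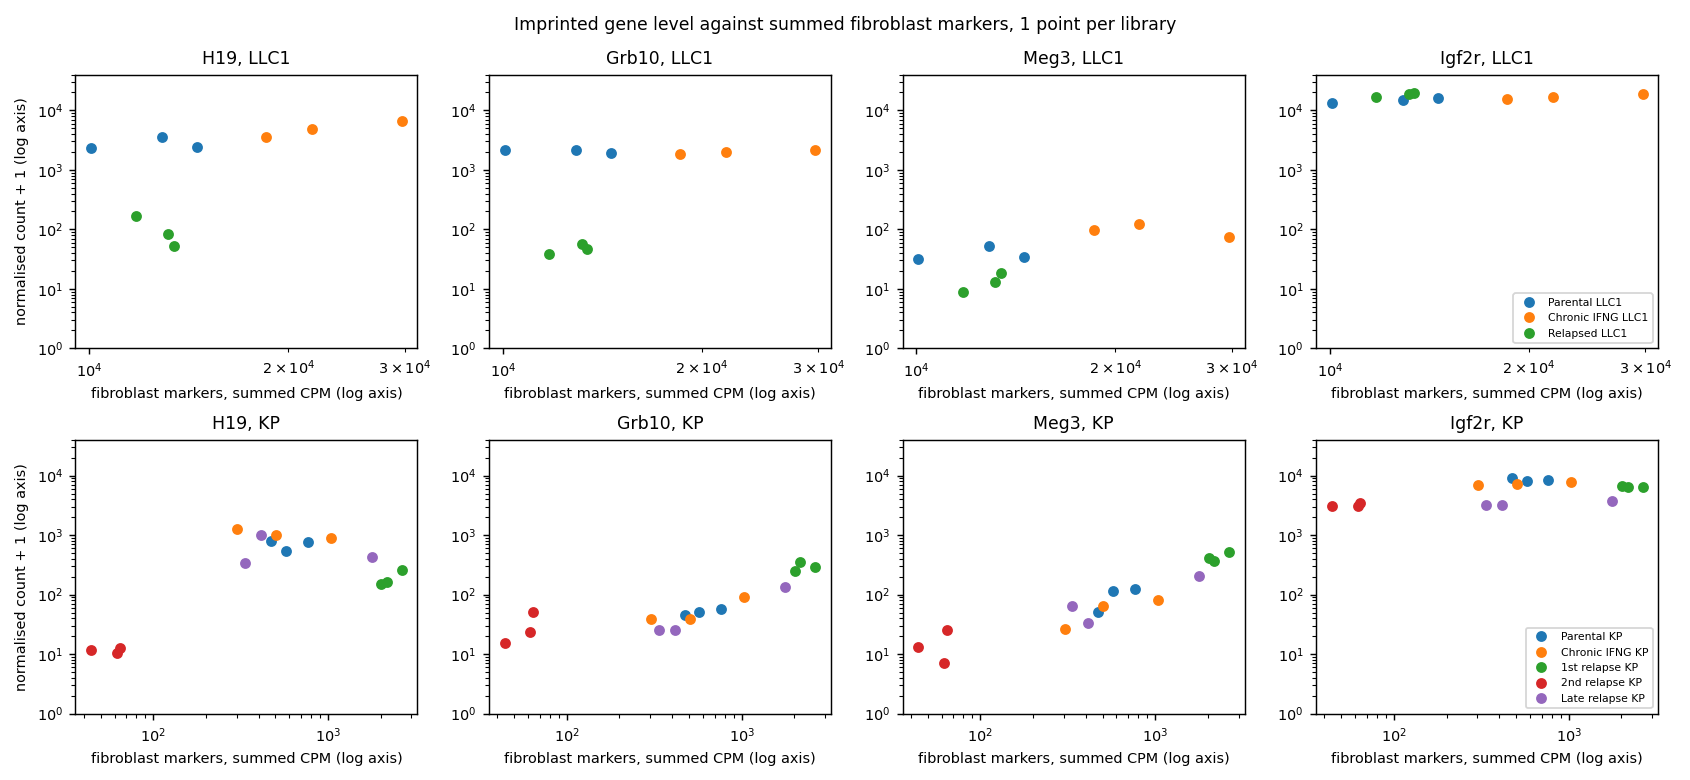
Summed fibroblast markers in CPM, on a log axis, against normalised counts plus 1 of H19, Grb10, Meg3 and Igf2r, also on log axes, 1 point per library coloured by group, LLC1 above and KP below. In KP, 1st-relapse libraries (2020 to 2644) hold the most Meg3 and 2nd-relapse libraries (44 to 64.2) the least. Relapsed LLC1 libraries (11745 to 13412) lie within the parental range of the sum (10057 to 14562), which in LLC1 is mostly Col3a1.

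Genes with the most similar pattern were sought by Pearson's r over all libraries of a line, as a description. The 9 or 15 libraries share a normalisation and, in LLC1, the 3 relapsed libraries lie apart, which raises r for any gene split the same way. In LLC1, H19 was most like Gas7 (r = 0.994), Maml1 (0.992) and Lsp1 (0.992). For Grb10 these were Myh10 (0.997), Ccbe1 (0.996) and Pcdhb17 (0.995), and for Peg3 they were Ccl11 (0.991), Mdm4 (0.988) and Myadm (0.984). In KP, H19 was most like Mmp11 (0.932), Zik1 (0.929) and Stard9 (0.928), Meg3 most like Rian (0.970), P3h3 (0.968) and Igfbp6 (0.966), and Igf2r most like Sipa1l2 (0.980), Amer1 (0.974) and Zkscan3 (0.973).

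Genes within 500 kb were not part of the choice and were tested with limma (adjusted p over all tested genes). Around H19, 3 of 5 tested neighbours were called in relapsed LLC1, each lower, beside 45.4% of all tested genes called and 19.5% called lower. They were Lsp1, an actin-binding protein of leukocytes and endothelium that starts 117.3 kb away (log2 difference -1.40, SE 0.12, adjusted p = 8.2e-06), Cd81, a tetraspanin (-0.67, SE 0.07, adjusted p = 3.9e-05), and Ctsd, the lysosomal protease cathepsin D (-0.26, SE 0.06, adjusted p = 0.00584). The 7 leukocyte markers were not lower there, at 10.1 to 28.7 CPM in relapsed against 3.68 to 5.93 in parental libraries. Lsp1 was higher in chronic IFNG LLC1 (0.56, SE 0.12, adjusted p = 0.00734). In KP it fell in 2nd relapse (-1.50, SE 0.09, adjusted p = 4.3e-09) and late relapse (-0.69, SE 0.09, adjusted p = 2.7e-05). Its 1st-relapse difference, -0.31 (SE 0.09, adjusted p = 0.0127), was not called without parental KP library 3 (adjusted p = 0.0678). In KP the leukocyte markers summed to 9.3 to 25.3 CPM in parental and 3.15 to 4.93 in 2nd relapse, without overlap. They summed to 16.1 to 24.9 in 1st and 13.1 to 26.5 in late relapse. The part of leukocytes was not tested in either line. In 2nd relapse KP 3 of the 5 tested genes near H19 were lower (Lsp1, Cd81 and Ctsd) and 1, Syt8, was higher, beside 65.8% of all tested genes called.

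**Figure D5:**
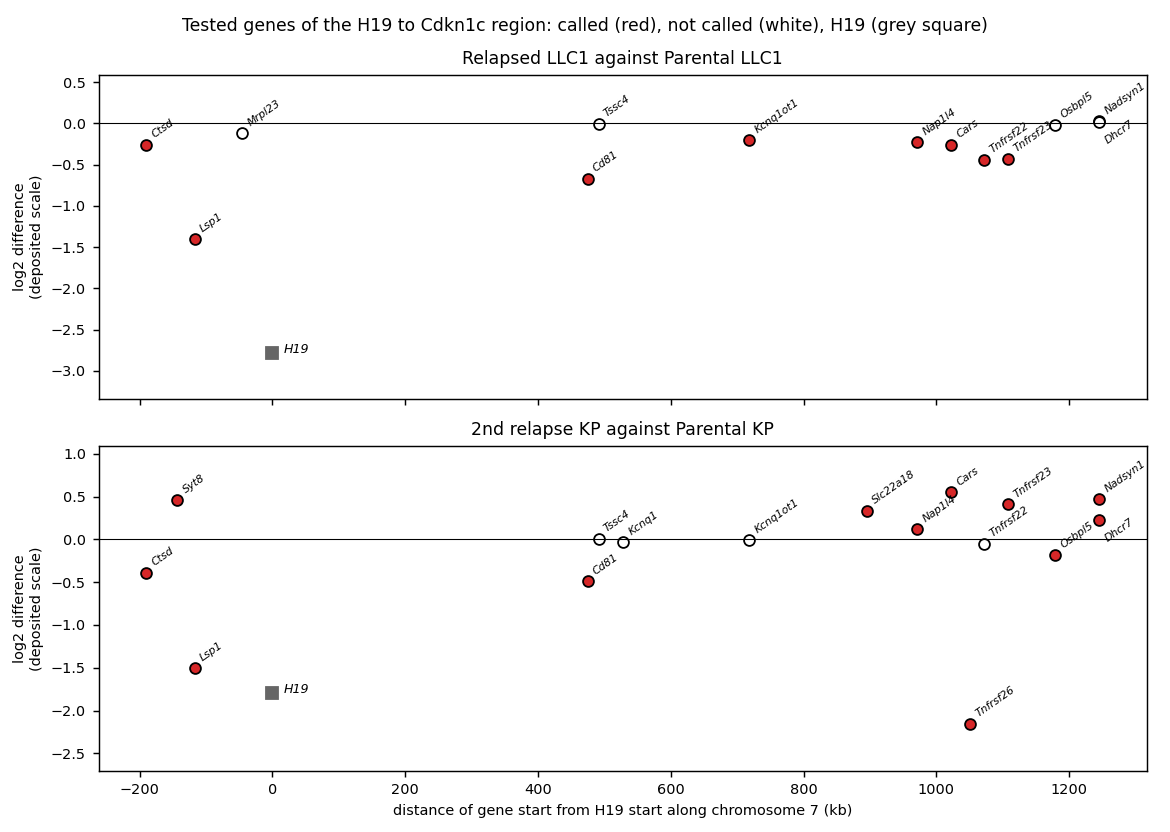
Log2 differences from parental tumours in relapsed LLC1 and 2nd relapse KP of tested genes around H19 and Cdkn1c, by distance of their start from that of H19 in kb; red points were called by limma, white ones were not, and the grey square is H19. Lsp1, 117.3 kb from H19, reaches -1.40 in relapsed LLC1 and -1.50 in 2nd relapse KP.

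Around Cdkn1c, 6 of 10 tested genes were called in relapsed LLC1, each lower, beside 45.4% of all tested genes called and 19.5% called lower, among them the decoy receptor gene Tnfrsf23 (-0.43, adjusted p = 0.00196) and its neighbour Tnfrsf22 (-0.44, adjusted p = 0.00224). The windows around H19 and Cdkn1c overlap, so their counts can share genes. In KP 13 genes near Cdkn1c were tested. In chronic IFNG 2 were higher and 0 lower, beside 12.8% and 9% of all tested genes. The 1st relapse had 4 and 1 (25.4% and 25.5%), the 2nd 6 and 3 (36.8% and 29%) and the late one 8 and 1 (31% and 25.9%). Among them the potassium channel gene Kcnq1 rose in chronic IFNG (1.21, SE 0.15, adjusted p = 3.9e-05) and 1st relapse (1.62, SE 0.15, adjusted p = 6.8e-07). Its neighbour Slc22a18, 12.7 kb from Cdkn1c, rose in both too (0.45, adjusted p = 2.6e-04, and 0.59, adjusted p = 7.4e-06). Slc22a18 was also called higher in 2nd (0.33) and late relapse (0.30), and Kcnq1 in late relapse (0.58). Tnfrsf26 fell in 2nd relapse (-2.16, SE 0.10, adjusted p = 2.7e-10).

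Beside Meg3, the noncoding RNA gene Rian, 62.9 kb away, was the 1 tested gene in each line. It was higher in chronic IFNG LLC1 (0.37, SE 0.06, adjusted p = 0.00241), lower in relapsed LLC1 (-0.33, SE 0.06, adjusted p = 0.00136) and higher in 1st relapse KP (1.30, SE 0.17, adjusted p = 1.7e-05), where its libraries held 899.5, 839 and 633 normalised counts against 94.5, 79 and 161 in parental. Like Meg3, it was high where the fibroblast markers were (2020 to 2644 CPM in 1st relapse, 472 to 765 in parental), and their part was not tested. In 2nd relapse its difference was -0.39 (SE 0.17, adjusted p = 0.0509). Near Grb10 the only tested LLC1 neighbour, Fignl1, was not called in relapsed tumours (0.06, SE 0.06, adjusted p = 0.45). In KP the decarboxylase gene Ddc, 140.5 kb from Grb10, rose in 2nd relapse (1.79, SE 0.06, adjusted p = 6.1e-12), from 9.28, 6.38 and 4.89 normalised counts in parental to 689, 581 and 713. Ddc was also called higher in chronic IFNG (0.37), 1st relapse (0.60) and late relapse (1.06). Airn, the noncoding RNA that silences the paternal copy of Igf2r in most tissues, also fell in 2nd relapse (-0.63, SE 0.05, adjusted p = 1.1e-07). In late relapse, where Igf2r was at -1.20, Airn was at -0.21 (limma adjusted p = 0.00431). Airn was not called in chronic IFNG or 1st relapse KP, where Igf2r was also lower. In relapsed LLC1 the difference of Airn was 0.01 (SE 0.08, adjusted p = 0.92).

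A wider list of 87 other genes reported as imprinted in at least some mouse tissues had 41 tested members in LLC1 and 45 in KP. In relapsed LLC1 5 were higher and 14 lower, where 25.9% and 19.5% of all tested genes were, and median centring gave 3 and 17. The list had a median log2 difference of -0.02 beside 0.03 over all tested genes. The decorin gene Dcn (-0.96, adjusted p = 2.9e-05) and Cd81 led those that fell, and Gatm, an enzyme of creatine synthesis (0.55, adjusted p = 1.3e-05), those that rose, with Copg2, Pon2, Zrsr1 and Snhg14 the other four. Chronic IFNG LLC1 had 6 higher and 9 lower (median -0.01, all genes -0.02), beside 9.03% and 15.5% of all tested genes. There Dcn was higher (0.87, adjusted p = 4.9e-04), and Peg10, a retrotransposon-derived placental gene, was lower (-0.77, adjusted p = 4.1e-04). The summed fibroblast markers were higher there too, 18534 to 29710 CPM against 10057 to 14562 in parental, and in relapsed LLC1 their sum overlapped parental. In KP Dcn was at 0.97 in 1st and -1.52 in 2nd relapse, in the direction of that sum in each. The part of fibroblasts in the Dcn results was not tested.

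In chronic IFNG KP the wider list had 3 higher and 11 lower (median -0.05, all genes -0.01), beside 12.8% and 9% of all tested genes, a split that turned from 1431 and 1007 genes to 1291 and 1508 with median centring. The 3 were Kcnq1, Slc22a18 and Ddc. The first relapse had 13 higher and 11 lower (median 0.03, all genes -0.01), beside 25.4% and 25.5% of all tested genes. Its split turned to 11 and 14 with quantile normalisation and to 10 and 15 with median centring. In 2nd relapse 12 were higher and 22 lower (median -0.11, all genes 0.03), beside 36.8% and 29% of all tested genes. Late relapse had 12 and 15 (median -0.02, all genes 0.01), beside 31% and 25.9%. Second-relapse tumours had much lower Axl, a receptor tyrosine kinase (-2.40, adjusted p = 6.1e-12), and Rasgrf1, a guanine nucleotide exchange factor (-2.21, adjusted p = 1.5e-10). Nnat fell in every KP comparison, by 1.32, 2.14, 2.10 and 2.15 on the log2 scale in chronic IFNG, 1st, 2nd and late relapse (largest adjusted p = 1.7e-06).

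The IGF pathway list, 36 genes around Igf2, Igf2r and Grb10, had 26 tested members in LLC1 and 30 in KP. In relapsed LLC1 12 rose and 4 fell (median 0.08, all genes 0.03), beside 25.9% and 19.5% of all tested genes. The mRNA-binding protein gene Igf2bp1, which stabilises Igf2 and H19 RNA in the embryo, fell (-1.40, SE 0.08, adjusted p = 8.2e-07), while Igfbp6, an IGF2-preferring binding protein (1.16, adjusted p = 2.8e-05), Pik3ca (0.67, adjusted p = 1.3e-05) and the receptor substrate Irs2 (0.62, adjusted p = 7.9e-05) rose. Igfbp4 and Igf2bp2 were also among those that fell. In chronic IFNG LLC1 6 rose and 1, Igfbp4, fell (median 0.05, all genes -0.02), beside 9.03% and 15.5% of all tested genes, led by Igfbp7 (0.60, adjusted p = 3.2e-04) and Irs1 (0.53, adjusted p = 0.005).

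In KP the pathway had 4 higher and 3 lower in chronic IFNG, 9 and 11 in 1st relapse, 8 and 13 in 2nd relapse, and 11 and 8 in late relapse, with medians of 0.00, 0.02, -0.08 and 0.08. Over all tested genes, 21.8%, 50.9%, 65.8% and 56.9% were called in these comparisons. In chronic IFNG these were Igfbp7, Igf2bp1, Irs2 and Foxo1, which rose, and Irs1, Igfbp3 and Htra1, which fell. Igfbp7, a secreted binding protein, rose in all 4 comparisons, by 1.16, 2.00, 1.81 and 2.16 on the log2 scale (largest adjusted p = 4.9e-05). The Igf2 mRNA-binding protein gene Igf2bp3 fell in 2nd relapse (-1.70, SE 0.09, adjusted p = 5.2e-10) and late relapse (-0.88, SE 0.09, adjusted p = 1.4e-06). Irs1 was lower in 2nd relapse (-1.45, SE 0.06, adjusted p = 7.2e-11), and Htra1, a protease that cuts IGF-binding proteins, by 2.06 (adjusted p = 4.3e-11).

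Of 20 genes that set, keep or remove imprints or DNA methylation, 15 were tested in each line. The list holds the de novo methyltransferases Dnmt3a and Dnmt3b and the Tet genes, which oxidise methylated cytosine, so its counts do not describe imprint upkeep alone. In relapsed LLC1 3 rose and 6 fell, beside 25.9% and 19.5% of all tested genes. They included the maintenance methyltransferase Dnmt1 (0.44, adjusted p = 9.3e-04) and the histone methyltransferase Setdb1 (0.34, adjusted p = 1.7e-04), which rose with the imprint regulator Zfp445, and its partner Trim28 (-0.33, adjusted p = 0.0013), which fell. Tet2 fell by 0.36 (adjusted p = 0.014), a call lost without parental library 1 (adjusted p = 0.056) or relapsed library 1 (adjusted p = 0.0614). In chronic IFNG LLC1, where 15.5% of all tested genes fell, the 2 called genes fell, Uhrf1 (-0.47, adjusted p = 0.0133) and Dnmt1 (-0.26, adjusted p = 0.0304). The Uhrf1 call was lost without chronic IFNG library 2 (adjusted p = 0.0525), and that of Dnmt1 under 7 alternatives.

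In the KP relapses 25.5%, 29% and 25.9% of all tested genes were called lower in 1st, 2nd and late relapse. Of the genes on this list, all 9 called genes fell in 1st relapse and all 11 in late relapse, Dnmt3a, Tet2 and Tet3 among them both times. In 2nd relapse 3 rose (Uhrf1, Tet2 and Ctcf) and 10 fell. The list medians were -0.19, -0.26 and -0.30 in 1st, 2nd and late relapse, beside -0.01, 0.03 and 0.01 over all tested genes. In chronic IFNG KP, where 21.8% of all tested genes were called, Zfp57 rose and Dnmt1 and Arid4b fell, calls that each failed under at least 2 alternatives. Arid4b, a chromatin protein that helps set imprints, fell in all 3 relapses, by 0.57, 0.88 and 0.67 (largest adjusted p = 8.9e-07). The de novo methyltransferase Dnmt3a fell in 1st relapse (-0.57, SE 0.13, adjusted p = 0.00255) and late relapse (-0.66, SE 0.13, adjusted p = 7.1e-04). Tet3, which oxidises methylated cytosine, fell by 0.42, 0.55 and 0.66 (largest adjusted p = 4.0e-05). DNA methylation itself was not measured here.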

How the data were processed

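RNA-seq libraries were made from DNase-treated RNA of sorted cells with a stranded total RNA kit and sequenced paired-end, per the labels' protocols. Tools named in the submitters' processing notes are DESeq2 1.34.0, cutadapt 2.9 and Salmon 1.8.0. The values the authors deposited are variance-stabilised, on a log2 scale by their title and range, in 1 table per line. The lowest deposited value, 8.03 in LLC1 and 8.17 in KP, stands for 0 reads here, and normalised counts were calculated back from it. For each library, the number of reads per normalised count was searched for that put most low values near whole read numbers. With it, 69.1% to 76.9% of low values lay within 0.15 of a whole read number. Chance gives 30% for a fixed factor, but the search itself raises this share. The gap is therefore no test of the calculated counts, and read numbers and depths are estimates. The deposited scale is compressed at low counts, so log2 differences understate folds there.

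Symbols and positions came from GENCODE vM21. Genes with a group mean at least 1 log2 unit over the lowest value were tested, 10581 in LLC1 and 11193 in KP. For each line, limma 3.58.1 (R 4.3.3) fitted all groups together with an intensity trend. Adjusted p (Benjamini-Hochberg over all tested genes) below 0.05 was called, in 6 comparisons. With 3 libraries against 3 no exact test can pass that threshold, so calls depend on how limma models variance. The fit was tested on simulated data. The 10 genes, the lists and the alternatives were chosen with earlier results of these data known. Named genes were the 10 and up to 4 called genes per list and comparison with the largest absolute difference. Some of the called neighbours within 500 kb and the 3 genes most like each of 3 members were named too. Neighbours of Peg3, Plagl1, Mest and Igf2r were also tested, and the counts called there are not given. A few other genes are given for context and were chosen after their values were seen. A few items are not reported here. Alternatives were no filter, median centring, quantile normalisation, no trend, 2 groups only, a filter of 3 log2 units, the replicate number as a block and leaving out each library. Figures used Python 3.11.15 and matplotlib 3.10.9.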

Additional observations from a re-analysis of the deposited data

Results flagged for a closer look

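A few genes differed from parental tumours in opposite directions in the 2 lines, with every library of one group on one side of its parental mean and every library of the other group on the opposite side. The difference between lines was not tested, since the tables were normalised separately, and the comparisons of a line share parental libraries. Igf2r had log2 differences of 0.18 in chronic IFNG LLC1 and -0.21 in chronic IFNG KP. In relapsed tumours Igf2r was at 0.30 in LLC1, and at -0.37, -1.26 and -1.20 in 1st, 2nd and late relapse KP. Grb10 was at -2.70 in relapsed LLC1 and at 0.80 in 1st relapse KP. In 2nd and late relapse KP it was at -0.15 and 0.01, and those libraries overlapped parental, so the opposite direction was seen in 1st relapse alone. No gene was examined for a library far from the others, because each group has 3 libraries.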

How the results depend on the processing

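No called difference of the 10 genes or of the named genes changed direction under the alternatives run. The number of wider imprinted genes called moved by over 1.5 times with a filter of 3 log2 units, which left 12 list genes tested in LLC1 and 14 in KP. It became 7 against 15 in chronic IFNG LLC1, 7 against 19 in relapsed LLC1, 4 against 14 in chronic IFNG KP, 8 against 24 in 1st relapse, 12 against 34 in 2nd relapse and 8 against 27 in late relapse. With no filter 30 of 77 were called in relapsed LLC1. Leaving out each library in turn gave 10 to 12 in chronic IFNG LLC1, 14 to 17 in relapsed LLC1, 12 to 15 in chronic IFNG KP, 20 to 23 in 1st relapse, 31 to 33 in 2nd relapse and 26 to 28 in late relapse. Replicate numbers showed no pairing of the libraries in LLC1, where deviations of same-numbered libraries correlated at -0.303 to 0.0802 (9 pairs). In KP these correlations were -0.218 to 0.266 (30 pairs). Best with their own number correlated 1 of 9 libraries in LLC1 and 8 of 15 in KP, where chance gives 1 in 3. Whether the KP libraries were weakly paired was not settled. With the replicate number as a block the counts were 14, 17, 14, 23, 33 and 26 in the same order, in a fit whose other settings were unchanged. Among the 10 genes, whose calls are a description, H19 was no longer past the threshold in chronic IFNG LLC1 with the block, with no filter, or without parental library 1 or 2 or chronic IFNG library 1 or 2. Igf2r was not past it in relapsed LLC1 without parental library 1 or relapsed library 1. In chronic IFNG KP it was not past it without parental library 1 or chronic IFNG library 1 or 3, with no filter, with quantile normalisation, or with 2 groups only. Over all genes, 2596 were called in chronic IFNG LLC1, 1554 without parental library 1 and 1667 without chronic IFNG library 2; 2438 were called in chronic IFNG KP and 1583 without chronic IFNG library 1. With the filter of 3 log2 units 1210, 1776, 972, 2001, 2515 and 2197 genes were called in that order of comparisons, against 2596, 4809, 2438, 5697, 7367 and 6365. Low counts limit the precision for Igf2, Dlk1, Cdkn1c and, in LLC1, Plagl1. In KP they also limit it for Mest, above all in 1st relapse, and for H19, Meg3, Peg3 and Plagl1 in 2nd relapse.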

Other observations

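The pair Peg10 and Sgce, paternally expressed neighbours in one imprinted domain, varied together in KP. Peg10 stood at 124, 138 and 136 normalised counts in parental, 532, 604 and 475 in 1st relapse, 1.95, 3.06 and 3.51 in 2nd relapse and 36.3, 27.7 and 30.8 in late-relapse libraries. Sgce, the gene for epsilon-sarcoglycan, stood at 115, 147 and 117 in parental, 373, 428 and 397 in 1st relapse, 3.99, 8.78 and 7.11 in 2nd relapse and 21, 28.1 and 45.8 in late relapse. Both were called higher in 1st relapse (limma adjusted p = 4.0e-08 and 3.5e-07) and lower in 2nd (1.5e-08 and 5.4e-08) and late relapse (8.4e-06 and 1.1e-05). In LLC1 relapsed tumours their log2 differences were 0.07 and -0.00 (adjusted p = 0.512 and 0.947), and in chronic IFNG LLC1 -0.77 and 0.04 (adjusted p = 4.1e-04 and 0.586). In KP both were highest in 1st relapse and lowest in 2nd relapse, as were the summed fibroblast markers (2020 to 2644 CPM and 44 to 64.2 CPM, against 472 to 765 in parental), whose part was not tested.

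Nnat, a paternally expressed gene of developing brain and endocrine cells, went from 887, 994 and 667 normalised counts in parental KP to 84.9, 147 and 128 in chronic IFNG libraries, and was at 5.41 or less in all 9 libraries of the 3 relapsed groups.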
